A study of Mus musculus with 3 samples.

Results

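The Mecom and Prdm16 loci were described through the regions of the active histone marks H3K27ac and H3K4me1 in hematopoietic stem cells of old mice. Members were all deposited peak intervals, called regions below, that overlapped chromosome 3 from 29800000 to 30450000 (the Mecom locus, 650 kb) or chromosome 4 from 153660000 to 154050000 (the Prdm16 locus, 390 kb) in mouse build mm9. They numbered 439 of 248440 regions: 103 H3K27ac and 177 H3K4me1 regions at Mecom, and 82 H3K27ac and 77 H3K4me1 regions at Prdm16. Each mark was measured by chromatin immunoprecipitation sequencing in 1 library of bone marrow cells from C57BL/6 mice aged 24 months, sorted as SP-KSL-CD150+ cells. An input DNA library of the same cells was not analysed here. The labels name no genotype or treatment, the series design gives 50000 to 100000 primary cells for these assays, and how many mice were pooled was not given in the sources used here. Per the labels each library was a technical replicate of the first biological replicate, and with 1 library for a mark nothing below could be checked in replicates or was tested. The cell type could not be checked against marker genes, because the regions carry no gene names and no mm9 annotation was used here.

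Mecom and Prdm16 encode related zinc finger transcription factors of the PR domain family, and mouse genetics has shown that stem cells of the blood depend on each of them. Mecom has alternative starts: a long form, MDS1-EVI1, begins far upstream and carries the PR domain, and a shorter form, EVI1, begins inside the gene and lacks it. Prdm16 is also known as a regulator of brown fat. H3K27ac is an acetylation of active promoters and enhancers, and H3K4me1 is a methylation of enhancers that also flanks active promoters.

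The promoter sequences are those of annotated starts, whose use in these cells was not measured here, and they were compared with each other. They come from RefSeq on build GRCm38.p6, which differs from the build of the regions, so no start was placed among the regions and no coordinate was converted. The table held 2 promoters for Mecom and 1 for Prdm16, all on the minus strand, which puts each start at the high-coordinate end of what it transcribes. The 250 bases before each start are printed 5′ to 3′, with capitals for each C followed by G. They lie on GRCm38.p6 at chr3:30509760-30510009, chr3:30013205-30013454 and chr4:154636874-154637123, in the order printed.
Mecom upstream promoter: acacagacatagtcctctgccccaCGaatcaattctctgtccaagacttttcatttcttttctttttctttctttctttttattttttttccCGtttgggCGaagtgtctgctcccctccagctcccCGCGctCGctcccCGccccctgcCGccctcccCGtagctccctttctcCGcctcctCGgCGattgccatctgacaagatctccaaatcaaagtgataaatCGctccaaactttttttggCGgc
Mecom downstream promoter: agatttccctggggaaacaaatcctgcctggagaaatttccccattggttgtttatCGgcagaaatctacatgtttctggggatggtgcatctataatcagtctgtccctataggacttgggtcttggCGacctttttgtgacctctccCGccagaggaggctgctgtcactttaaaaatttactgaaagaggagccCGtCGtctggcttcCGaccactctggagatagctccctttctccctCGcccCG
Prdm16 promoter: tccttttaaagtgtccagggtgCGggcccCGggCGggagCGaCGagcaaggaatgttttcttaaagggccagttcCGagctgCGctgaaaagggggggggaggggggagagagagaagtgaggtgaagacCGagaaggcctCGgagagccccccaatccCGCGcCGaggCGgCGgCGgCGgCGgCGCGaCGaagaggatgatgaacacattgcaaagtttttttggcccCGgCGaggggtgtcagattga

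Over these 250 bases the Mecom upstream promoter held 14 CG pairs, the Mecom downstream promoter 8 and the Prdm16 promoter 22, beside a median of 6 over 32851 promoters of the table. At least as many were held by 29.4%, 43.0% and 14.8% of all promoters, in the same order. Searched on both strands, the letters GATAAG of GATA factors were in none of the 3 and in 6.55% of all promoters. The letters GGAAGT of ETS factors were in none of the 3 and in 19.7% of all, and the letters TGTGGT of RUNX factors in none of the 3 and in 14% of all. Within the 250 bases of the 3, the letters CANNTG of E-box factors, which overlap no other motif searched, occurred 1 time. This was catctg, beginning 57 bases before the Mecom upstream start, and 66.2% of all promoters held CANNTG. Just after their starts, the Mecom upstream promoter and the Prdm16 promoter shared a run of 24 bases. It lies from base 27 after the start in Mecom and from base 10 in Prdm16, outside the 250 bases searched for motifs. The run holds catgtg, which also matches CANNTG. None of the other promoters of the table held this whole run on either strand, and runs of at least 20 bases of the Mecom upstream promoter were found, besides Prdm16, in promoters of Celf6, Fbn1 and Fig4.
Shared run of Mecom and Prdm16: gcgcatgtgcgaaggtgtccaaac
The longest run common to the 2 Mecom promoters was 15 bases long, and it begins 89 bases before the upstream start and 24 bases before the downstream start. These 2 promoters were also the only ones with it in the table. Both runs were looked for after the sequences had been seen.
Run common to both Mecom promoters: tagctccctttctcc

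Both loci were more densely marked than most of the genome, while the larger part of their length carried neither mark. H3K27ac covered 75.9 kb of the Mecom locus (11.7%) and 55.9 kb of the Prdm16 locus (14.3%), and H3K4me1 covered 207.7 kb (32%) and 134.3 kb (34.4%). For comparison the 19 autosomes were divided from their first base into consecutive stretches of the length of each locus, up to the last region of the chromosome and without leaving out assembly gaps. The Mecom value was 9.27 times the median of 3792 stretches for H3K27ac and 6.97 times for H3K4me1, and 0.844% and 0.448% of the stretches were covered as much or more. The Prdm16 value was 14.2 times the median of 6328 stretches for H3K27ac and 8.89 times for H3K4me1, with 0.743% and 0.917% of the stretches covered as much or more. Among stretches that held both marks these ratios were 6.29 and 4.95 at Mecom and 7.75 and 5.28 at Prdm16.

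**Figure D1:**
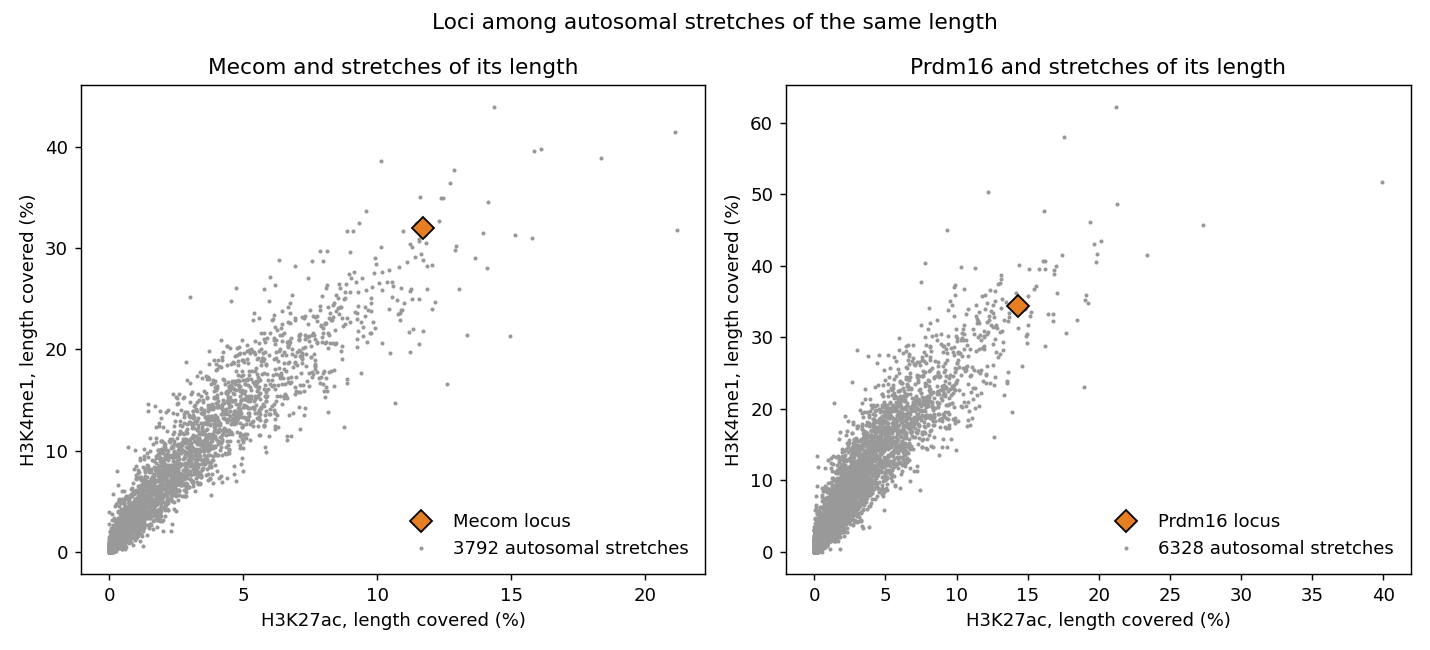
Percent of the length covered by H3K27ac (x axis) and by H3K4me1 (y axis) in the Mecom locus (left, diamond) and the Prdm16 locus (right, diamond) and in the autosomal stretches of the same length (grey points). Mecom lies at 11.7% and 32% and Prdm16 at 14.3% and 34.4%, above most stretches for both marks. The highest stretch values reach 21.2% and 43.9% on the left and 39.9% and 62.1% on the right.

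The number of H3K4me1 regions at Mecom, 177, was 1 above the highest of the 3792 stretches, which held 176 (median 32). The 2 stretches that overlap the locus held at most 169. When regions with a raised local background (more than 5% above the genome-wide level) were left out, Mecom kept 95 H3K4me1 regions, and 20 of the 3790 stretches outside the locus (0.528%) held as many or more, a comparison added after the data were seen. The 103 H3K27ac regions of Mecom were equalled or passed in 40 of the stretches. At Prdm16 the 82 H3K27ac regions were equalled or passed in 0.553% of the 6328 stretches and the 77 H3K4me1 regions in 2.75%. Thus Mecom had 272 H3K4me1 and 158 H3K27ac regions per Mb, against 51.7 and 30.2 on the rest of chromosome 3, and Prdm16 had 197 and 210 per Mb, against 62.5 and 37.1 on the rest of chromosome 4. Mecom held more H3K4me1 than H3K27ac regions, and Prdm16 held 82 H3K27ac against 77 H3K4me1 regions. The order at Prdm16 turned with stricter limits, to 30 against 49 at a −log10 q of 5 or more and 8 against 26 at 10 or more. Without regions of raised local background the numbers at Prdm16 were 63 against 64.

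The loci stood apart in how much was marked rather than in the height of most regions. The fold values are those of the authors' peak caller, the summit pileup over the local background, and are read only within 1 list. H3K27ac regions had a median of 3.84-fold at Mecom and 3.88-fold at Prdm16, against 3.86-fold over the whole list, with a median of 13 summit reads in each. H3K27ac regions of 6-fold or more made up 11.7% at Mecom (12 of 103) and 9.76% at Prdm16 (8 of 82), against a background of 18.7% over all 93413 H3K27ac regions. H3K27ac regions of 10-fold or more numbered 5 at Mecom and 2 at Prdm16, or 4.85% and 2.44%, against 7.77%. The H3K4me1 medians were 3.58-fold at Mecom and 4.12-fold at Prdm16, against 4.12-fold over the list. H3K4me1 regions of 8-fold or more made up 4.52% at Mecom (8 of 177) and 14.3% at Prdm16 (11 of 77), against 6.25% of all 155027.

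Wide regions of both marks were present at each locus. H3K27ac regions of 4 kb or more numbered 3 of 103 at Mecom and 3 of 82 at Prdm16 (2.91% and 3.66%), against 0.457% of the list. H3K4me1 regions of 5 kb or more numbered 7 at each locus (3.95% of the Mecom and 9.09% of the Prdm16 regions), against 2.04%, and those of 10 kb or more numbered 2 at each, against 0.295% of the list. The counts in these width classes are small, and the median widths were close to those of the lists. The median H3K27ac region was 374 bp wide at Mecom and 383 bp at Prdm16, against 355 bp, and the median H3K4me1 region 644 bp and 656 bp, against 687 bp. The 5 widest H3K27ac regions held 38.8% of the acetylated length at Mecom and 37.1% at Prdm16.

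**Figure D2:**
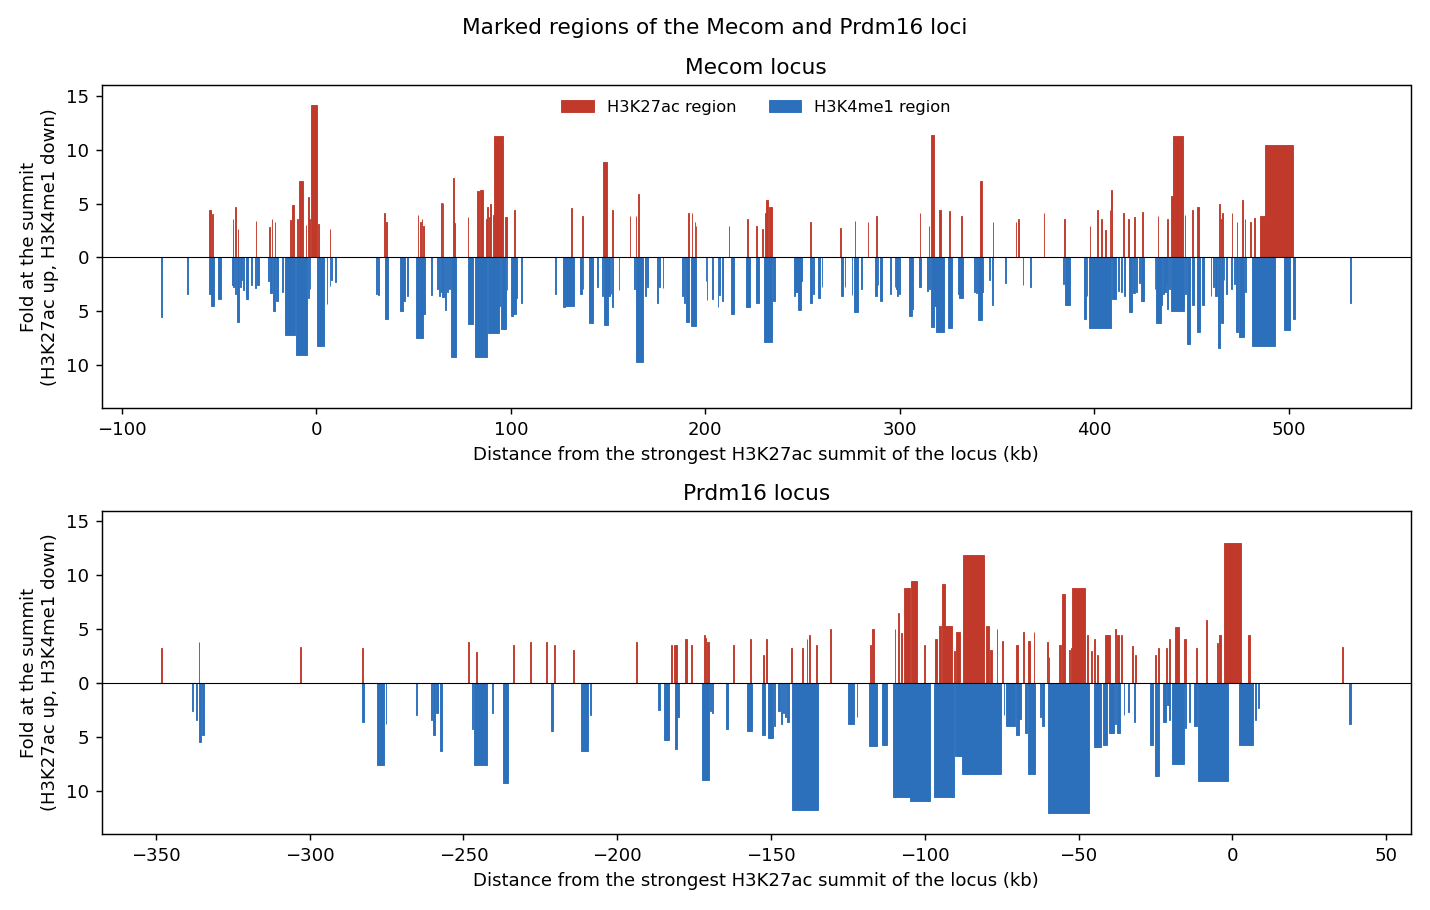
Each H3K27ac region (red, upward) and H3K4me1 region (blue, downward) of the Mecom locus (top) and the Prdm16 locus (bottom), placed by its distance in kb from the strongest H3K27ac summit of the locus. A bar is as wide as its region and as high as the fold at its summit. Marked regions run through the Mecom locus, whereas at Prdm16 86.4% of the acetylated length lies above the midpoint.

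The strongest acetylation of the Mecom locus lay in a break of H3K4me1. This H3K27ac region, on chromosome 3 from 29909157 to 29912408, was 3.25 kb wide with a summit of 14.18-fold and 47 reads, and 3.51% of the list reached that fold. It met no H3K4me1 region. The break in H3K4me1 around it ran from 29908843 to 29912491 (3.65 kb) and was 89.1% acetylated, between an H3K4me1 region of 2.95-fold on the low side and one of 8.21-fold on the high side. Its summit was 558 bp from the nearest H3K4me1 on the high side and 3092 bp from the nearest on the low side.

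At the other end of the Mecom locus lay 1 of the widest H3K27ac regions of the genome. It ran from 30400021 to 30414132, spanned 14.1 kb and was the third in width of all 93413, behind 2 regions on chromosome 17 of 15518 and 15033 bp. Its summit, 492 kb from the strongest one, reached 10.44-fold with 44 reads, at a local background 1.39 times the genome-wide level. H3K4me1 covered 56.4% of it, with a break from 30404880 to 30409312 (4.43 kb) that was acetylated throughout and bordered by H3K4me1 of 8.21-fold and 6.74-fold. The summit itself lay inside the first of these H3K4me1 regions.

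The other 3 of the 5 strongest H3K27ac regions of Mecom lay between these ends and had their summits inside H3K4me1. The region from 30227867 to 30229529 reached 11.31-fold (40 reads) in 1.66 kb, and H3K4me1 covered 87.0% of it. The region from 30003527 to 30008148 reached 11.31-fold (38 reads) in 4.62 kb, and met 3 H3K4me1 regions of up to 7.02-fold. The region from 30352685 to 30357636 had the most summit reads of the locus, 53, and reached 11.29-fold at a local background of 1.59 times the genome-wide level. It lay wholly inside an H3K4me1 region of 4.92-fold.

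At Prdm16 the strongest H3K27ac region likewise crossed a break of H3K4me1. Its span on chromosome 4 was 154007631 to 154013108 (5.48 kb), and its summit reached 13.00-fold with 43 reads. The break ran from 154008785 to 154012613 (3.83 kb), was acetylated throughout and contained the summit, with H3K4me1 of 9.06-fold on the low side and 5.69-fold on the high side. The summit was 1518 bp and 2312 bp from these. Breaks of 2 to 6 kb filled to at least 90% by H3K27ac, limits chosen after the data were seen, numbered 1 of 41 at Mecom and 1 of 8 at Prdm16, against 0.996% of all 28819 such breaks. The break at the strongest Mecom summit fell just short of that limit.

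The next 4 H3K27ac regions of Prdm16 by fold were clustered between 153903584 and 153929513 and lay inside H3K4me1 at their summits. The region from 153922598 to 153929513 was 6.92 kb wide, with 11.89-fold and 40 reads, and was wholly covered by an H3K4me1 region of 8.38-fold. Those from 153905722 to 153907701 and from 153915905 to 153916780 reached 9.46-fold and 9.16-fold and were wholly covered by H3K4me1 regions of 10.95-fold and 10.53-fold. The last, from 153903584 to 153905502, reached 8.86-fold and was 97.3% covered.

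**Figure D3:**
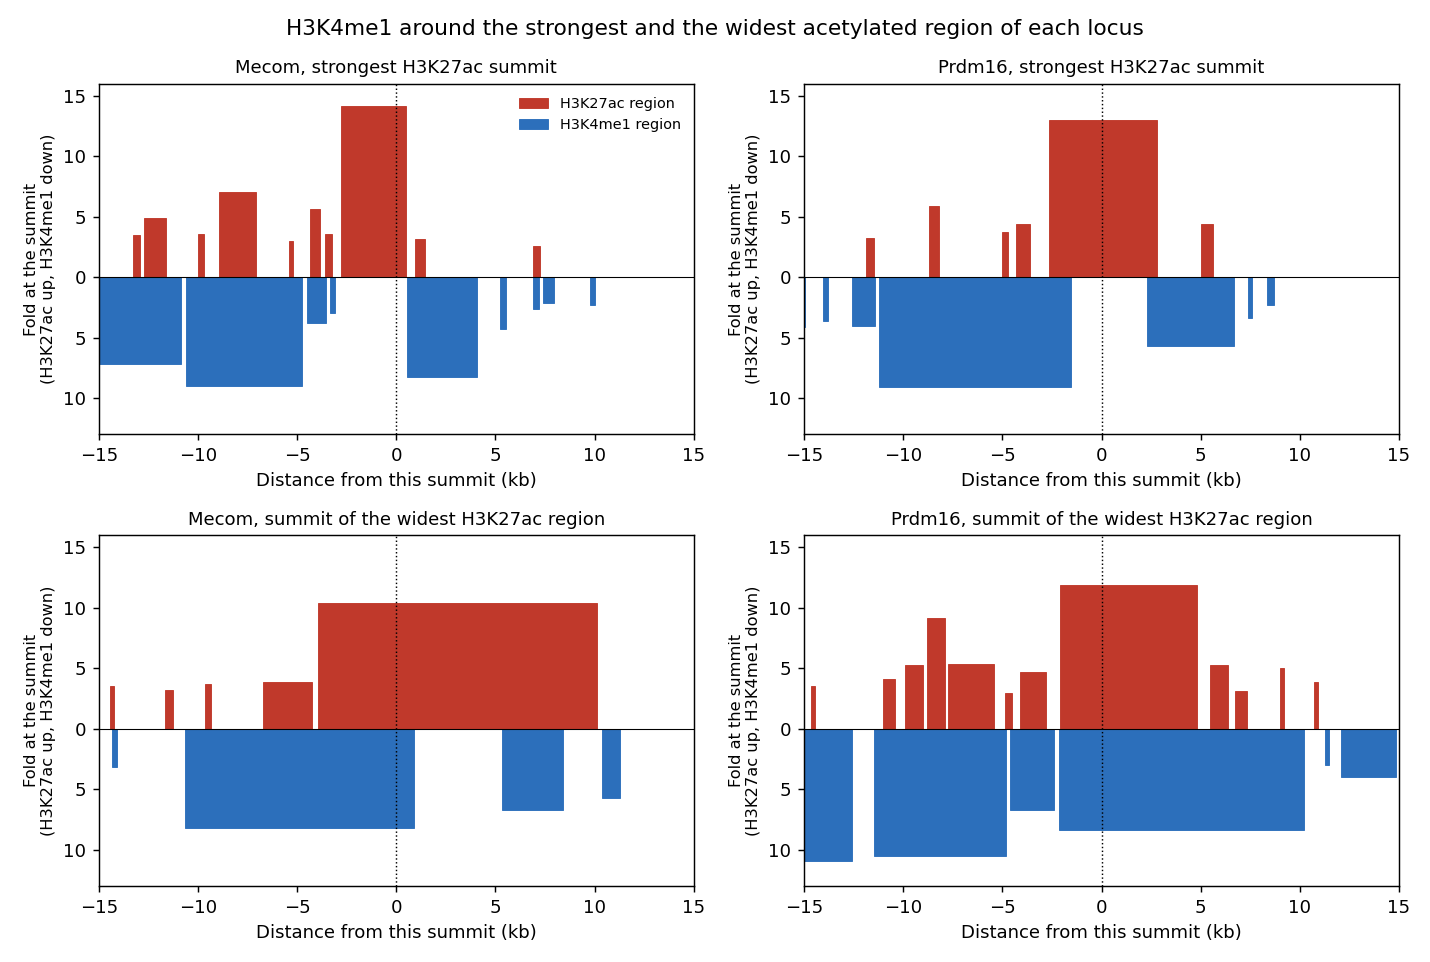
H3K27ac regions (red, upward) and H3K4me1 regions (blue, downward) within 15 kb of the strongest H3K27ac summit (top) and of the summit of the widest H3K27ac region (bottom) at Mecom (left) and Prdm16 (right). Bars are as wide as the region and as high as the fold at its summit, and the dotted line marks the summit. H3K4me1 is broken at both of the strongest summits (3.65 and 3.83 kb), and present at both summits of the bottom row.

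H3K27ac summits lay inside H3K4me1 more often than in the list at both loci. At Prdm16 the interval of counting error included the share of the list, and the difference between the loci was not tested. The summit lay inside H3K4me1 for 74.8% of the H3K27ac regions of Mecom (77 of 103, exact 95% interval 65.2 to 82.8%) and 68.3% of those of Prdm16 (56 of 82, interval 57.1 to 78.1%), against 58.2% of all. Among the 35 Prdm16 regions of 3-fold to below 4-fold the share was 51.4%, against 54.8% of that class in the list. With classes split at 3, 4, 6 and 10-fold, only in this class was the Prdm16 share below that of the list. Among H3K27ac regions of 10-fold or more the summit lay inside H3K4me1 for 4 of 5 at Mecom and 1 of 2 at Prdm16. In the list it did so for 25.6% of the 7255. An H3K27ac summit outside H3K4me1, with H3K4me1 at 1 kb on both sides, was found for 3 regions at Mecom (2.91%) and 7 at Prdm16 (8.54%), against 5.85% of all. None of these was a region of 10-fold or more, a class in which the list had 34.6%. The summits of that class lay inside H3K4me1 except for the strongest of each locus. At those the break reached beyond 1 kb on at least 1 side of the summit. With 7 regions of 10-fold or more in both loci, these shares are a description of few regions. Both loci were more densely covered by H3K4me1 than most stretches, and the part of this density in the summit shares was not tested.

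Most acetylated regions carried H3K4me1, and most H3K4me1 regions had no H3K27ac. At Mecom 88 of 103 H3K27ac regions met H3K4me1 over at least 1 bp (85.4%, exact 95% interval 77.1 to 91.6%), against 71.7% of the list. At Prdm16 58 of 82 did (70.7%, interval 59.6 to 80.3%), a share close to that of the list. In the other direction 65 of 177 H3K4me1 regions met H3K27ac at Mecom (36.7%, interval 29.6 to 44.3%) and 31 of 77 at Prdm16 (40.3%, interval 29.2 to 52.1%), against 33.6% of the list. These intervals hold counting error and nothing else: reads lacking molecular identifiers may be copies of 1 molecule, and regions beside each other share their source. Of the acetylated length, 77.9% at Mecom and 76.0% at Prdm16 lay inside H3K4me1, against 65.9% over the list. Neither mark was present on 65.5% of the Mecom and 62.1% of the Prdm16 locus. H3K4me1 covered 32% of Mecom, against a median of 4.59% over stretches of its length, and 34.4% of Prdm16, against 3.87%. The part of this density in the shares above was not tested.

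The difference between Mecom and the whole list was smaller under some other settings. H3K4me1 regions whose local background exceeded the genome-wide level by more than 5% made up 46.3% at Mecom and 16.9% at Prdm16, against 36.8% of the list. H3K27ac regions of this kind made up 33.0% and 23.2%, against 26.2%. Without them in either list, 53.6% of the remaining H3K27ac regions of Mecom met H3K4me1 (37 of 69), against 50.2% of those of the whole list. When the H3K4me1 list was cut to the length of the H3K27ac list, 70.9% did, against 65.3%. Among regions with a −log10 q of 5 or more, 86.1% of those of Mecom (31 of 36) did, against 85.3% of the whole list. The part of the raised background in the Mecom share was not tested.

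Regions with both marks were wider and stronger at the median than regions with 1 mark, at the loci as in the whole lists. Since 1 shared bp was enough to meet, a wider region has more length in which to do so. The part of this rule in the differences by width was not tested. H3K27ac regions with H3K4me1 had a median of 3.89-fold and 398 bp at Mecom, against 3.55-fold and 249 bp without it. At Prdm16 they had 4.14-fold and 433 bp with H3K4me1, against 3.55-fold and 335 bp without it. Over the whole list these medians were 4.37-fold and 448 bp, against 3.5-fold and 252 bp. The ranges overlapped, and the strongest H3K27ac region of Mecom was itself without H3K4me1. H3K4me1 regions with H3K27ac had a median of 5.05-fold and 1418 bp at Mecom, against 3.37-fold and 459 bp without it, and at Prdm16 5.85-fold and 1768 bp, against 3.58-fold and 461 bp. Over the whole list they were 5.69-fold and 1396 bp, against 3.58-fold and 493 bp. All 7 H3K4me1 regions of 5 kb or more at each locus met H3K27ac, against 96.1% of those in the list. Under 500 bp, 9 of 72 at Mecom and 3 of 30 at Prdm16 met it, against 11.2% of those in the list. Of the H3K4me1 regions from 6-fold to below 10-fold, 25 of 27 met H3K27ac at Mecom (92.6%) and 9 of 13 at Prdm16 (69.2%), against 70.0% of those in the list. All 5 of 10-fold or more at Prdm16 did, against 92.3%.

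**Figure D4:**
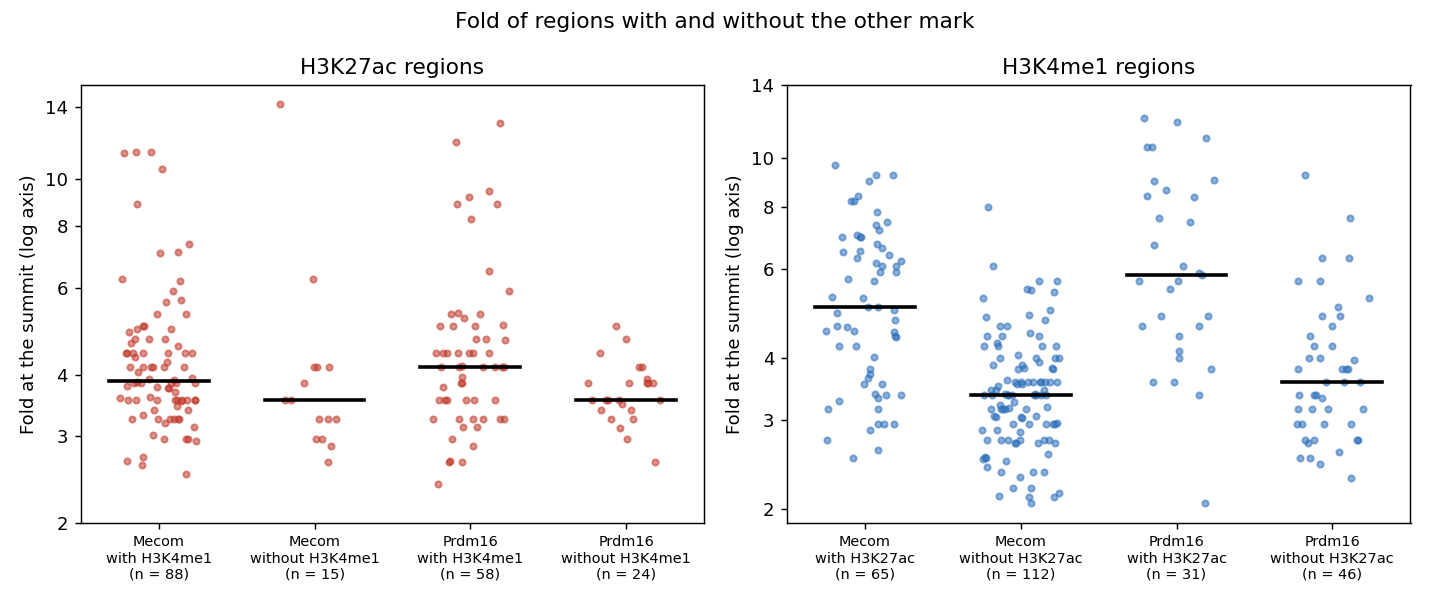
Fold at the summit (log axis) of H3K27ac regions with and without H3K4me1 (left) and of H3K4me1 regions with and without H3K27ac (right) at Mecom and Prdm16. Each point is 1 region of 1 library and each bar the median, and the ranges of the classes overlap.

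The widest H3K4me1 regions held several H3K27ac regions each. The widest of Prdm16 (153950202 to 153963734, 13.5 kb) met 7 H3K27ac regions of up to 8.86-fold. It was also the strongest H3K4me1 region of the locus, at 12-fold with 56 reads, and 206 regions of the whole list reached that fold. The next ran from 153922536 to 153934918 (12.4 kb, 4 H3K27ac regions, 69.5% acetylated) and from 153999096 to 154008784 (9.69 kb, 4 H3K27ac regions). The region from 153867286 to 153875510 reached 11.79-fold over 8.22 kb, but only 13.1% of it was acetylated, in 4 regions of up to 4.43-fold. Regions from 153913218 to 153919852 (10.53-fold) and from 153905650 to 153912093 (10.95-fold) completed the widest and strongest of this locus.

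At Mecom the widest H3K4me1 region ran from 30393316 to 30404879, spanned 11.6 kb with 8.21-fold and was 66.2% acetylated. The second, from 30309342 to 30320342, was 11 kb wide and met 5 H3K27ac regions, none above 4.43-fold, and 17.6% of it was acetylated. The others were from 30351413 to 30358273 (6.86 kb), from 29993712 to 29999907 (6.20 kb, 9.27-fold) and from 29901329 to 29907176 (5.85 kb, 9.01-fold). The highest H3K4me1 fold of Mecom was 9.69, from 30076354 to 30079783, where 2 H3K27ac regions reached 5.91-fold, and 9.27-fold was reached also from 29981374 to 29983918. Mecom had no H3K4me1 region of 10-fold or more and Prdm16 had 5 (6.49%), against 1.12% of the list.

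H3K4me1 regions that met no H3K27ac region numbered 112 of 177 at Mecom (63.3%) and 46 of 77 at Prdm16 (59.7%), against 66.4% of the list. At Mecom the widest of these ran from 30297005 to 30299305 (2.30 kb, 4.42-fold), from 30359510 to 30361294 (1.78 kb, 8-fold) and from 29861167 to 29862864 (1.70 kb, 3.86-fold at a local background of 1.87 times the genome-wide level). At Prdm16 they ran from 153936754 to 153939521 (2.77 kb, 3.96-fold), from 153732075 to 153734540 (2.47 kb, 7.58-fold) and from 153885260 to 153887421 (2.16 kb, 3.79-fold). H3K27ac below 8 summit reads was never called, so weaker acetylation there may have been missed. After the strongest region, the H3K27ac regions without H3K4me1 of highest fold at Mecom ran from 30320461 to 30321127 (6.27-fold), with its summit 276 bp from the nearest H3K4me1, and from 29946944 to 29947152 (4.14-fold). At Prdm16 they ran from 153879572 to 153879853 (5.02-fold), from 153942252 to 153942528 (4.73-fold) and from 153973956 to 153974303 (4.43-fold), and each was under 350 bp wide.

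Marked length was spread along Mecom and gathered at 1 side of Prdm16. In segments of 65 kb, H3K27ac covered 28.3% of the last segment of Mecom, on the high-coordinate side, 19.1% of the segment before it, and 16.5% and 17.0% of the second and the fourth. H3K4me1 covered 26.0 to 50.2% of the Mecom segments except the first, which had 7.02%. At Prdm16 H3K27ac covered 0.962%, 3.26% and 7.46% of the first 3 segments and 20.9%, 35.6% and 17.8% of the last 3. H3K4me1 covered 70.4% of the fifth Prdm16 segment and 2.66% of the first. Above its midpoint Prdm16 thus held 86.4% of its acetylated and 80.7% of its H3K4me1 length, and Mecom 57.6% and 53.3%.

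**Figure D5:**
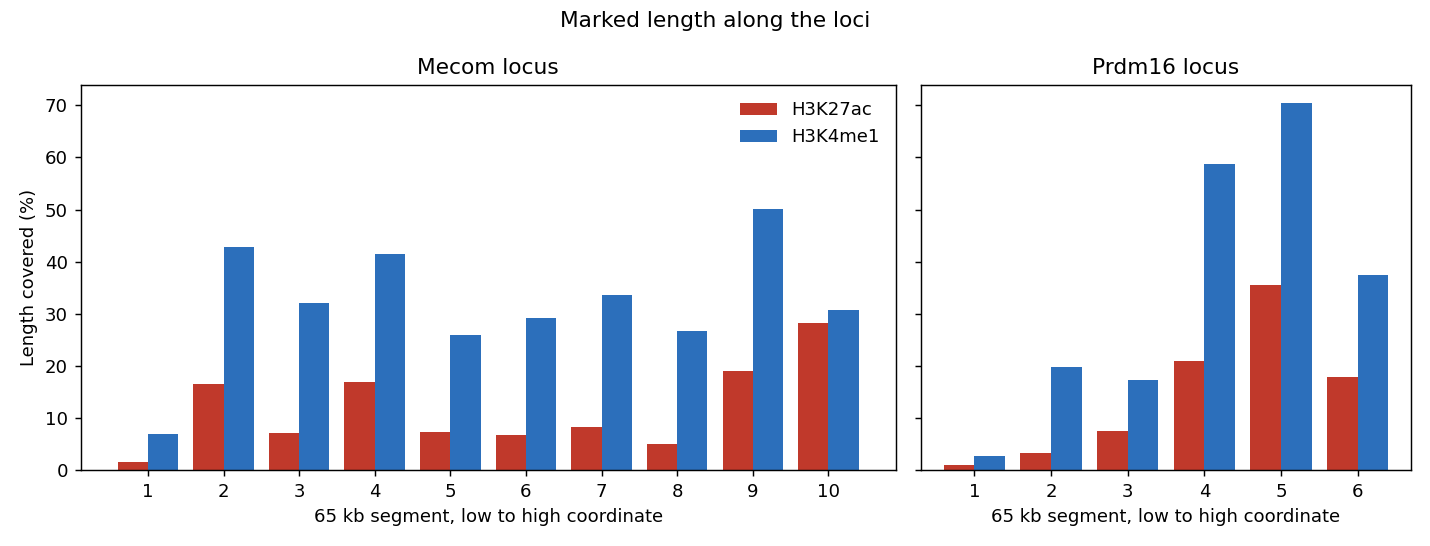
Percent of each 65 kb segment covered by H3K27ac (red) and H3K4me1 (blue) along the Mecom locus (left, 10 segments) and the Prdm16 locus (right, 6 segments), from low to high coordinate. At Prdm16 the fourth to sixth segments are the highest for both marks, while Mecom has its least marked length in the first segment.

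The overlap of the marks followed the same sides of Prdm16. Above its midpoint 50 of 61 H3K27ac regions met H3K4me1 (82.0%), against 8 of 21 below it (38.1%) and 71.7% of the list. H3K4me1 regions met H3K27ac in 25 of 49 cases (51.0%) above and 6 of 28 (21.4%) below the midpoint, against 33.6% of the list. At Mecom the shares of H3K27ac regions were 80.4% above and 90.4% below the midpoint, and those of H3K4me1 regions 35.6% and 37.5%. The split at the midpoint was chosen after the data were seen. H3K4me1 covered 108 kb above and 26.0 kb below the Prdm16 midpoint, and H3K27ac 48.3 kb and 7.6 kb. The part of this difference in marked length in the shares was not tested.

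Joined over gaps of up to 12500 bp, the H3K27ac regions formed 7 domains at Prdm16 and 11 at Mecom. At each locus 1 domain exceeded the others in both span and acetylated length. Domains of 10 or more regions numbered 2 of 7 at Prdm16 and 4 of 11 at Mecom, against 5.68% of all 30221. The largest of Prdm16 ran from 153892515 to 154015921, spanned 123.4 kb with 52 regions and 45.4 kb acetylated, and was 73.2% covered by H3K4me1. It ranked 23rd of all domains by acetylated length and second on chromosome 4. The other ran from 153816467 to 153879853, with 18 regions and 7.04 kb acetylated, and no summit above 5.02-fold.

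At Mecom the largest domain ran from 30309604 to 30414132 at the high-coordinate end, spanned 104.5 kb with 28 regions and 32.5 kb acetylated, and ranked 75th of all and second on chromosome 3. The others ran from 29964088 to 30014067 (19 regions, 13.8 kb acetylated), from 29856996 to 29919193 (19 regions, 11.8 kb) and from 30222214 to 30273303 (10 regions, 5.76 kb). The strongest summit of Mecom lay in the third of these 4, whose rank was 682. Each domain lay wholly inside its window.

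The longest unmarked stretches lay at or near the ends of the windows. The longest stretches of Mecom without either mark were its first 32.2 kb, from 29800000 to 29832154, and 28.3 kb from 30415246 to 30443563, beyond the widest H3K27ac region. Those of Prdm16 were 31.4 kb from 153675867 to 153707252 and 27.1 kb from 154018985 to 154046050. Outside the Mecom window the nearest H3K27ac regions lay 26.3 kb below it (5.32-fold) and 43.9 kb above it (9.46-fold), and outside the Prdm16 window 24.6 kb below and 22.8 kb above (2.95-fold each). The nearest H3K4me1 regions lay closer at Mecom, 6.53 kb below the window and 9.60 kb above it, and 24.7 kb below and 22.7 kb above at Prdm16. By the RefSeq gene table, whose build differs, the neighbouring protein-coding genes are Egfem1 and Actrt3 for Mecom and Arhgef16 and Actrt2 for Prdm16. The non-coding gene Mecomos lies within Mecom, and Mannr and Prdm16os lie next to Mecom and Prdm16. Which regions belong to these genes was not analysed here.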

How the data were processed

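H3K27ac and H3K4me1 peak lists of 1 library each were used. Per the submitters' processing notes, the tools were Bowtie2 2.0.6 and MACS2 2.0.10.20131216 and the build mm9. Which options and control the caller had is not given in the sources used here. Fold as deposited is a ratio of summit pileup to local background. The authors' files also give a −log10 p and a −log10 q for each summit (lowest −log10 q 1.30 and 1.31). The deposited score was not used. The members and lists were chosen with earlier results of these data known.

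Summit reads and local background were computed from fold and −log10 p, taking fold as (reads + 1)/(background + 1) and p as the Poisson probability of more reads. For all 93413 and 155027 summits some whole number of reads came within 0.001 of the −log10 p in the files. The genome-wide level was taken as the most frequent background over the called summits of a list. It was 2.38 (H3K27ac) and 3.75 (H3K4me1) reads. The weakest summits held 8 and 10 reads. Regions met when they shared at least 1 bp, intervals of shares are exact 95% Clopper-Pearson ones, and coordinates count from 1. Interval functions and read recovery were tested on simulated data.

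Named regions were, per locus, the 5 strongest H3K27ac and 5 widest H3K4me1 regions, the 3 strongest H3K4me1 regions, the 3 strongest H3K27ac or widest H3K4me1 regions without the other mark, domains of 10 or more regions and the 2 longest unmarked stretches. The 2 wider H3K27ac regions of chromosome 17 were named after their values were seen. A planned comparison of the proteins was not made, since no protein table was used here. Promoter tables were matched by symbol (2 of 2 genes). The segments, width and fold classes and H3K4me1 breaks were also chosen after the data were seen. Alternatives changed the overlap rule, q limit, H3K4me1 number, window, background, domain gap and ranking. Software was Python 3.11.15 with scipy 1.17.1, pandas 2.3.3, numpy 2.4.6 and, for figures, matplotlib 3.10.9.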

Additional observations from a re-analysis of the deposited data

How the results depend on the processing

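Of 52 values under other settings, 25 moved: shares went outside their counting interval, and counts or ranks changed by a factor over 1.5. The other 27 did not. The numbers of H3K27ac regions were 36 at Mecom and 30 at Prdm16 once −log10 q had to reach 5, and 12 and 8 at a limit of 10. Those of H3K4me1 regions were 90 and 49 at 5, 48 and 26 at 10, and 85 and 43 with equal numbers of regions. The genome-wide background alone left 95 H3K4me1 regions at Mecom. With a distance of up to 1 kb, 95.1% of Mecom and 85.4% of Prdm16 H3K27ac regions met H3K4me1, and 57.6% and 63.6% of H3K4me1 regions met H3K27ac (whole lists 81.6% and 46.1%). With equal numbers 70.9% of Mecom H3K27ac regions met H3K4me1, and 58.8% (Mecom) and 60.5% (Prdm16) of H3K4me1 regions met H3K27ac (whole lists 65.3% and 48.1%). The genome-wide background alone gave 53.6% and 55.6% of H3K27ac regions (whole list 50.2%), where partners were removed too. At Prdm16 90% of H3K27ac regions met H3K4me1 with a −log10 q limit of 5 and 100% (8 of 8) with 10 (whole list 85.3% and 78.6%). H3K4me1 shares at 10 were 22.9% at Mecom and 26.9% at Prdm16 (whole list 28.3%). The best domain of Prdm16 ranked 35th by fold times width. Stricter limits leave fewer regions and partners, and for the other settings the cause was not tested. With neither stretches over the loci nor regions with a raised background, which was added after the data were seen, the stretches with as many regions numbered 76 (Mecom H3K27ac), 20 (Mecom H3K4me1), 28 (Prdm16 H3K27ac) and 27 (Prdm16 H3K4me1). No setting was without a value. No paired analysis was possible because the marks had 1 library apiece. A mark that was not called may still be present: the weakest summits called in the whole lists held 8 H3K27ac and 10 H3K4me1 reads. The part of library depth in missing calls was not tested.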
